A study of Mus musculus with 6 samples.

Results

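The genes described here were the transglutaminases Tgm1, Tgm2, Tgm3 and Tgm5 and the deiminases Padi1, Padi2, Padi3 and Padi4, taken by symbol, and they are 8 of the 56941 genes in the count table. Transglutaminases join proteins to each other by bonds between glutamine and lysine side chains, and peptidylarginine deiminases convert arginine residues of proteins into citrulline. Both families need calcium. In the hair follicle they act on trichohyalin and on keratins, so that the inner root sheath and the medulla of the hair harden, and in the epidermis they act on the proteins of the cornified envelope and on filaggrin. Variants in the human genes for 1 transglutaminase (TGM3), 1 deiminase (PADI3) and their substrate trichohyalin (TCHH) are known from uncombable hair.

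They were measured by RNA sequencing of hair follicle stem cells (HFSCs), sorted from female dorsal skin at postnatal day (PD) 68 by the surface proteins CD34 and α6-integrin. The study asked how the adaptor protein Dab2 regulates these cells, and compared 3 WT with 3 Dab2-cKO biological replicates. The paper places both genotypes on this day at the second telogen, the resting phase of the hair cycle. All mice were Dab2 fl/fl of the strain B6;129S4-Dab2tm1Cpr/J and were given tamoxifen at 75 mg/kg on 5 days, and the Dab2-cKO mice also carried K14CreER, in which the K14 promoter drives a tamoxifen-activated Cre in basal keratinocytes, while WT mice did not. Total counts lay between 7040032 and 11696457 per library. The columns taken as Dab2-cKO are headed FL-FL in the table, and the series title equates these names. Dab2 itself went from 327 ± 15.3 normalized counts (SD, n = 3, WT) to 1375 ± 68.2 (SD, n = 3, Dab2-cKO), so the targeted gene went against the label and every direction below is that between labelled libraries. This count covers the whole gene and does not show the deleted part separately. Both sorting markers were present in all 6 libraries and were higher in those labelled Dab2-cKO, by a log2 fold change of 1.80 for Cd34 and 0.55 for Itga6. The call of Itga6 was lost with libraries scaled by size only (log2 fold change 0.13, edgeR's adjusted p = 0.0667). Krt15, a keratin of the bulge where HFSCs reside, was also higher (log2 fold change 0.84). Of 10 bulge markers listed, these 3 included, 7 were higher and 3 were lower. The lower ones were Lgr5, Sox9 and Lhx2, with log2 fold changes of -1.32, -1.45 and -1.43. The stage of the sorted cells was not tested here. Trichohyalin (Tchh) was at 162261 ± 15992 normalized counts (SD, n = 3) in WT and 1517 ± 13.5 in Dab2-cKO. The proliferation marker Mki67 was at 6162 ± 346 in WT and 1413 ± 55.4 in Dab2-cKO.

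All 8 enzymes differed between the genotypes, and they split into 5 that fell and 3 that rose. Padi3, Padi4, Padi1, Tgm3 and Tgm1 were lower in the libraries labelled Dab2-cKO, with Padi3 34.6-fold lower. Tgm2, Padi2 and Tgm5 were higher, with Tgm2 3.02-fold higher. Counts were compared by edgeR's quasi-likelihood test, and a gene was called at a Benjamini-Hochberg adjusted p under 0.05 over all 32149 genes tested, of which 28.2% were called. Of all genes tested, 16.8% were called higher and 11.4% lower, against 3 and 5 of the 8 enzymes. For each of the 8 enzymes the normalized counts of the genotypes did not overlap, as was the case for 38.3% of all genes tested. The median log2 fold change was -0.20 over the 4 transglutaminases and -2.81 over the 4 deiminases, beside -0.02 over all genes tested. In bulk RNA, fewer cells of a type and less RNA per cell cannot be told apart.

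**Figure D1:**
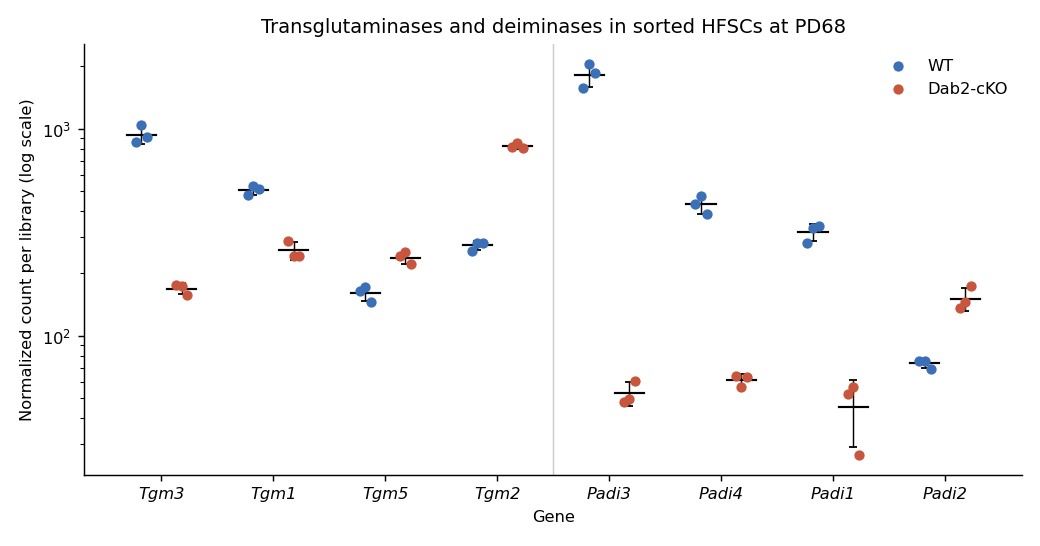
Normalized count of each enzyme gene in each library (log axis), with WT in blue and Dab2-cKO in red. Each point is a library, bars are the mean of 3 and whiskers the SD. Padi3 ran from 1565 to 2041 in WT and from 47.7 to 60.7 in Dab2-cKO, and Tgm2, Tgm5 and Padi2 are the genes whose red points lie above the blue ones.

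Tgm3 encodes a transglutaminase found in the hair shaft and inner root sheath, a proenzyme that is activated by cleavage. It lies at chr2:129854257-129892319 (GRCm39, plus strand, 13 exons, protein coding). In WT replicates 1 to 3 it had 863, 1036 and 907 normalized counts, and in Dab2-cKO replicates 1 to 3 it had 175, 174 and 157. The lowest WT library was far above the highest library labelled Dab2-cKO, and the spread within a genotype was small beside this gap. Tgm3 had a log2 fold change of -2.47 (SE 0.09, edgeR's adjusted p = 2.80e-34), a 5.55-fold lower level, and 236 of the 32149 genes tested had a lower log2 fold change.

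The start of Tgm3 is shown because this gene had the highest level per kb of exon of the transglutaminases in WT. The sequence is the part of the RefSeq promoter window before the first exon, 247 bases at chr2:129854010-129854256 (GRCm39, plus strand), 5′ to 3′. Capitals mark TATAAA, found 28 bases before the RefSeq start, and CCAAT read on the opposite strand, found 52 and 137 bases before it.
Tgm3: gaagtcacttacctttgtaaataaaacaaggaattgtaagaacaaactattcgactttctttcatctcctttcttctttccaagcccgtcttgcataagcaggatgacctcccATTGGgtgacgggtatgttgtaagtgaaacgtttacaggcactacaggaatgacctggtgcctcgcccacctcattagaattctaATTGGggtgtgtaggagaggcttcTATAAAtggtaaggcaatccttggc
Among 32851 RefSeq windows of the same 250 bases, 12.4% held TATAAA and 33.8% held CCAAT on either strand. An exon of a long noncoding RNA annotated on the opposite strand, Gm52561, lies within this window.

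Tgm1 encodes the membrane-bound transglutaminase that builds the scaffold of the cornified envelope, and loss of the human enzyme is known from lamellar ichthyosis. The gene is at chr14:55937466-55951383 (minus strand, 15 exons). Its normalized counts were 477, 527 and 511 in WT and 288, 243 and 244 in Dab2-cKO. All 3 WT libraries were above all 3 others, but by much less than for Tgm3. The log2 fold change was -0.96 (SE 0.10, edgeR's adjusted p = 3.85e-13), and leaving out each library in turn gave -1.07 to -0.92.

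Tgm5, the transglutaminase of the upper epidermal layers known from acral peeling skin, moved the other way. It lies at chr2:120876592-120916322 (minus strand, 13 exons). The 3 WT libraries had 164, 172 and 146 normalized counts of Tgm5 and the Dab2-cKO libraries 241, 253 and 221. The groups did not overlap, and the gap between them was wider than the range within either genotype. Its log2 fold change was 0.57 (SE 0.12, edgeR's adjusted p = 0.00014). With libraries scaled by total count alone the log2 fold change was 0.15 and the gene was not called (edgeR's adjusted p = 0.341), so this rise depended on the scaling.

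Tgm2, the widely expressed tissue transglutaminase that also works outside cells on the extracellular matrix, rose the most of the 8. It lies at chr2:157958322-157988359 (minus strand, 13 exons). Its normalized counts were 257, 282 and 280 in WT and 815, 854 and 805 in Dab2-cKO. The libraries of each genotype lay close together and the genotypes lay far apart. This gave a log2 fold change of 1.59 (SE 0.09, edgeR's adjusted p = 8.33e-26), with 803 genes tested above it. On the opposite strand, exons of Gm20412 and Rprd1b cover 13.2% and 7.74% of its exon bases, and Rprd1b, a protein-coding gene, was not called. The sources do not give the strand setting of the counting, and reads from such pairs cannot be told apart without strand.

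Of the annotated transglutaminase genes outside these 4, Tgm6 fell and F13a1 rose, while 3 did not pass the test. Tgm6 is the neighbour of Tgm3 on chromosome 2, 62.0 kb away on the same strand, and its enzyme is known mainly from neurons. Its normalized count was 622 ± 51.2 (SD, n = 3) in WT and 50.7 ± 5.57 (SD, n = 3) in Dab2-cKO, a log2 fold change of -3.62 (SE 0.13, edgeR's adjusted p = 1.48e-36). The next genes beyond Tgm6, Snrpb and Tmc2, were not called (log2 fold changes -0.09 and -0.19). F13a1, the A subunit of coagulation factor XIII made by macrophages and platelet precursors, went from 432 ± 30.7 to 2988 ± 60.4 (SD, n = 3), a log2 fold change of 2.79 (SE 0.08, edgeR's adjusted p = 7.71e-43). Tgm4 (a prostate enzyme), Tgm7 and Epb42, the red cell protein without enzyme activity, had log2 fold changes of -0.06, -0.12 and -0.01, and their genotypes overlapped. Epb42, Tgm5 and Tgm7 are neighbours on chromosome 2, with gaps of 9.04 kb and 7.72 kb, and Tgm5 was the called gene of these 3.

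**Figure D2:**
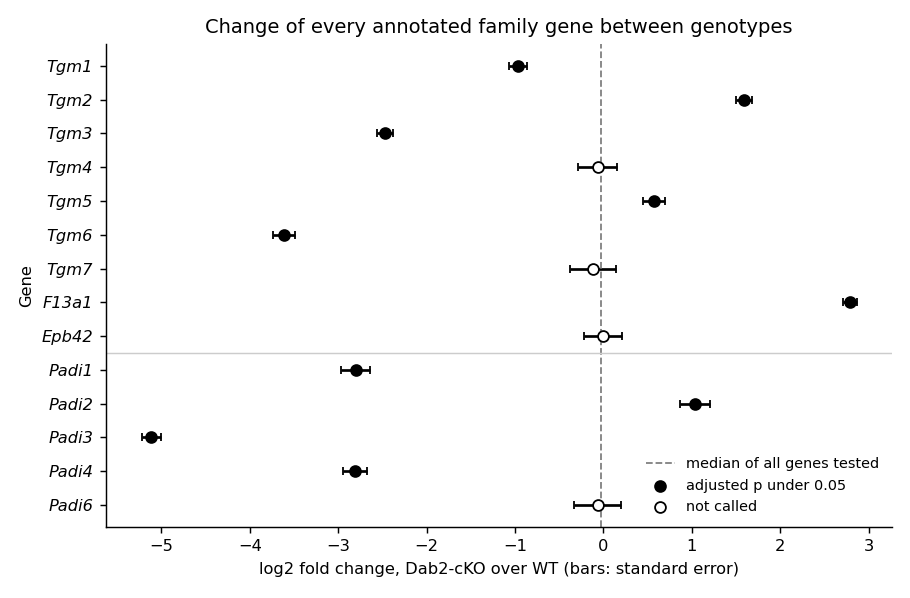
Log2 fold change, Dab2-cKO relative to WT (x axis), for each annotated transglutaminase and deiminase gene, with bars for the standard error, filled points for genes called by edgeR and a dashed line at the median of all genes tested. The values run from -5.12 (Padi3) to 2.79 (F13a1), and the open points, Tgm4, Tgm7, Epb42 and Padi6, lie close to the dashed line, from -0.12 to -0.01.

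The 5 deiminase genes stand in 1 block of 225.2 kb on chromosome 4, in the order Padi6, Padi4, Padi3, Padi1 and Padi2. Padi2 is on the plus strand and the others are on the minus strand, and the gaps between them are 2.85, 10.7, 2.33 and 60.6 kb. Within this block, the 3 adjacent genes Padi4, Padi3 and Padi1 fell, Padi2 rose, and Padi6, at the other end, was not called. The 4 deiminase genes described here have 16 exons each.

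The starts of Padi3, Padi1 and Padi2 are shown so that the adjacent genes that fell can be read beside the one that rose. Each is the part of the RefSeq promoter window (GRCm39, 5′ to 3′ on the strand of the gene) that lies before the first exon, 249 bases at chr4:140537961-140538209 for Padi3, 250 bases at chr4:140573090-140573339 for Padi1, both on the minus strand, and 226 bases at chr4:140633421-140633646 on the plus strand for Padi2. Capitals mark matches to CCAAT and GGGCGG on either strand.
Padi3: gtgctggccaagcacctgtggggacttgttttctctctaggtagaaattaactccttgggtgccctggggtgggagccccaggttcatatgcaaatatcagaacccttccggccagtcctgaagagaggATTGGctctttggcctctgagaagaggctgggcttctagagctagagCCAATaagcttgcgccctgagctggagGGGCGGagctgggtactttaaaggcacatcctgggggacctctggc
Padi1: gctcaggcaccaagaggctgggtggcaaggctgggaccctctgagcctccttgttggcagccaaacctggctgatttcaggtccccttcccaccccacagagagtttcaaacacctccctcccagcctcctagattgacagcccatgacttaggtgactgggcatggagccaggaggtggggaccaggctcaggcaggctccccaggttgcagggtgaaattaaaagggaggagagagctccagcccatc
Padi2: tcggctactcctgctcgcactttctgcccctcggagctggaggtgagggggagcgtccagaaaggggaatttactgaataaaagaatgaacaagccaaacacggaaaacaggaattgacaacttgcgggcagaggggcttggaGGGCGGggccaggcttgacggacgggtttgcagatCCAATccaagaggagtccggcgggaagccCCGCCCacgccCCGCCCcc
Padi3 held CCAAT at 74 and 121 bases before the RefSeq start and GGGCGG at 47 bases. Padi2 held CCAAT at 72 bases and GGGCGG at 32, 43 and 107 bases. Neither was found in the window of Padi1, nor were the other motifs searched, TATAAA, the AP-1 motif TGANTCA and CTTTGA (core of the TCF/LEF motif). Of the 32851 RefSeq windows, 32.7% held GGGCGG, 6.75% held the AP-1 motif and 13.8% held the TCF/LEF core. The window of Padi4 is not shown because 118 of its 250 bases are exonic, and it held TATAAA 31 bases and TGACTCA 54 bases before the RefSeq start. The window of Tgm5 held CCAAT at 96 bases. Tgm1 had a window at chr14:55950546-55950795 with CCAAT at 174 bases. Its other window, at chr14:55950950-55951199, held GGGCGG at 12 and 136 bases and the TCF/LEF core CTTTGA at 208 bases. Both windows of Tgm1 contain exonic bases and are not shown. These matches are a description of the letters, and none of the motifs overlapped another.

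Padi3, the deiminase of the inner root sheath and hair medulla that acts on trichohyalin, lies at chr4:140512672-140537960. Replicates 1 to 3 had 1565, 2041 and 1857 normalized counts in WT and 47.7, 49.5 and 60.7 in Dab2-cKO. No library labelled Dab2-cKO came near the WT range, and the libraries of that genotype lay close together. Padi3 thus had a log2 fold change of -5.12 (SE 0.11, edgeR's adjusted p = 2.36e-49), and 81 of the 32149 genes tested had a lower one. Behind the low values were 50, 43 and 55 counts.

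Padi1, the epidermal deiminase that acts on keratins and filaggrin, lies at chr4:140540291-140573089. Its normalized counts were 282, 329 and 338 in WT and 52.5, 56.4 and 26.5 in Dab2-cKO. The genotypes were well apart, but Dab2-cKO replicate 3 lay below the other libraries labelled so, and the coefficient of variation was 36.0% there against 9.54% in WT. The log2 fold change was -2.80 (SE 0.16, edgeR's adjusted p = 1.27e-24), and it stayed between -3.0 and -2.6 with each library left out in turn. The long noncoding gene Gm13032 covers 31.9% of the exon bases of Padi1 on the opposite strand, and it had 5, 8 and 13 counts in WT and 7, 2 and 5 in Dab2-cKO.

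Padi4, the deiminase that enters the nucleus and acts on histones, lies at chr4:140472808-140501939. Padi4 had 431, 474 and 386 normalized counts in WT and 63.9, 56.4 and 62.9 in Dab2-cKO. The 3 low libraries lay close to each other and far under the WT range. Its log2 fold change was -2.81 (SE 0.13, edgeR's adjusted p = 3.26e-29), close to that of Padi1. Padi4 is best known from neutrophils, and of 6 neutrophil markers tested 2 were higher (S100a9 and Csf3r), 1 was lower (S100a8) and 3 were not called, with 1 higher when any of 4 libraries was left out. The summed normalized count of the 7 neutrophil markers listed was 221 to 231 in WT and 238 to 283 in Dab2-cKO. The called markers had few counts per WT library, 16 to 21 for S100a9, 44 to 57 for Csf3r and 36 to 48 for S100a8.

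Padi2, the deiminase with the widest expression, known from brain and muscle, lies at chr4:140633647-140679897 and was the deiminase gene that rose. Its normalized counts were 75.7, 75.8 and 69.2 in WT and 135, 145 and 173 in Dab2-cKO. Every Dab2-cKO value lay over every WT value, and the former varied more among themselves than the latter did. The log2 fold change was 1.04 (SE 0.17, edgeR's adjusted p = 2.84e-07), a 2.06-fold higher level. On the opposite strand, Gm13031 covers 11.6% of its exon bases and had 17, 6 and 10 counts in WT and 8, 4 and 3 in Dab2-cKO. Padi6, known from the egg cell, had 45 ± 12.3 and 42.8 ± 8.95 normalized counts (SD, n = 3), and the genotypes overlapped.

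The genes that flank the block did not share 1 direction. Rcc2, beyond Padi6, fell (log2 fold change -1.17). On the other side, Sdhb rose by 0.24, Atp13a2 fell (log2 fold change -0.86) and Mfap2 rose by 1.68 on the log2 scale. None of these neighbours reached the size of the falls of Padi3, Padi4 and Padi1.

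**Figure D3:**
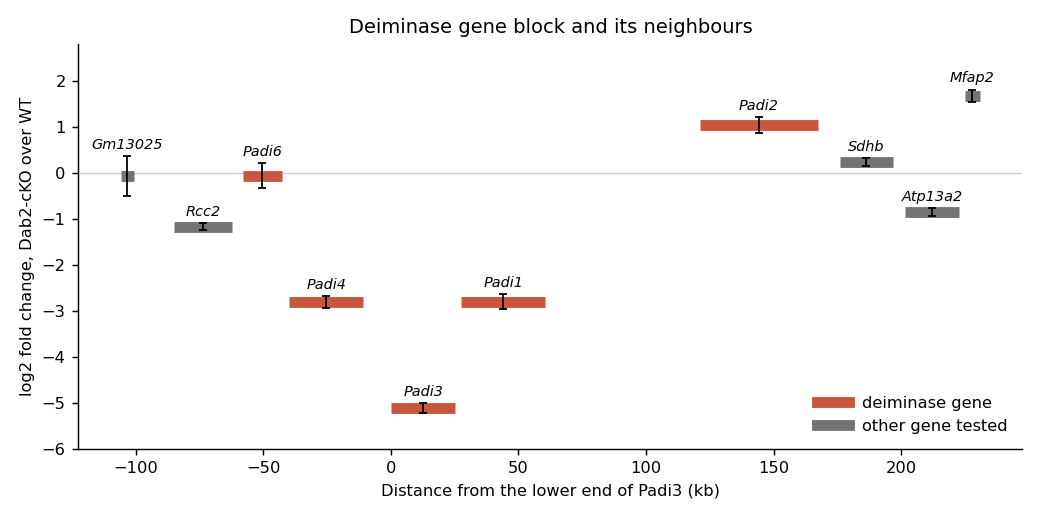
Deiminase genes (red) and other tested genes within 60 kb of the block (grey), each drawn as a bar over its length on the x axis (distance from the lower end of Padi3 in kb) at its log2 fold change (Dab2-cKO relative to WT) on the y axis, with whiskers for the standard error. The 3 adjacent red bars at -2.81, -5.12 and -2.80 lie under all other genes of the region.

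Levels were next set side by side per kb of exon, since longer transcripts give more counts. In WT the order of the deiminases was Padi3 at 528 ± 69.4 normalized counts per kb (SD, n = 3), Padi1 at 84.2 ± 8.03, Padi4 at 76.0 ± 7.74, Padi6 at 17.8 and Padi2 at 14.5 ± 0.744. Padi1 and Padi4 differed by about the size of their SD, and so did Padi6 and Padi2. In Dab2-cKO the order was Padi2 at 29.7 ± 3.87 normalized counts per kb, Padi6 at 16.9, Padi3 at 15.2 ± 2.04, Padi1 at 12 ± 4.32 and Padi4 at 10.8 ± 0.721, and none of the last 4 differed from its neighbour in this order beyond the spread of the libraries. The summed level of the deiminases per kb went from 720 ± 74.4 to 84.7 ± 5.51.

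As a background, 1439 genes for odorant, pheromone and trace amine receptors, which skin cells are not known to use, had a median of 4.90 normalized counts per kb in WT and 4.81 in Dab2-cKO, and a 95th percentile of 12.3 and 11.7. Padi4 in Dab2-cKO was under that percentile, Padi1 was just above it, and Padi3 was at 15.2. The fold changes of these 3 genes were therefore measured against a level near the background of the libraries. Among the transglutaminases, Tgm6 in Dab2-cKO was at 14.9, so the size of its fall was limited in the same way. Of the genes not called, Padi6 (17.8 in WT and 16.9 in Dab2-cKO), Tgm4 (15.1 and 14.3) and Epb42 (12.9 and 12.8) were near this level in both genotypes. Tgm7 was at 22.6 and 20.9. A fall of such genes could hardly have been measured. All 4 deiminases described here were above the percentile in WT, and Padi2 was in Dab2-cKO too. In WT, however, Padi2 was at 14.5, under the 15.2 of Padi3 in Dab2-cKO, so its rise also started near the background. Of the called neutrophil markers in WT, Csf3r was under the percentile (9.08), S100a9 was just above it (13.5) and S100a8 was at 41.8.

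Padi3 made up 73.1% ± 2.22 (SD, n = 3) of the summed deiminase level per kb in WT and 18% ± 1.23 in Dab2-cKO. Padi2 went from 2.02% ± 0.253, the smallest share, to 35.0% ± 2.24, the largest. Padi6, which was not called, also went from 2.53% ± 0.956 to 19.8% ± 2.81. The Dab2-cKO shares are thus parts of a small sum, 84.7 normalized counts per kb. The shares of Padi1 (11.7% and 14.4%) and Padi4 (10.6% and 12.8%) changed little, their falls being close to that of the sum.

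In WT the transglutaminases were led by Tgm3 at 226 ± 21.7 normalized counts per kb, followed by Tgm6 at 183 ± 15.0 and Tgm1 at 149.9 ± 7.67, with F13a1 at 63.6, Tgm2 at 57.1 ± 2.87 and Tgm5 at 50.9 ± 4.24. In Dab2-cKO the order was F13a1 at 439, Tgm2 at 172 ± 5.41, Tgm1 at 76.7 ± 7.66, Tgm5 at 75.6 ± 5.2 and Tgm3 at 40.7 ± 2.50. Tgm1 and Tgm5 did not differ beyond their spread there. Tgm3 fell from 28.8% ± 0.924 to 4.68% ± 0.138 of the summed level per kb, and Tgm2 went from 7.32% ± 0.321 to 19.9% ± 0.423. Unlike that of the deiminases, the summed level of the transglutaminases was no lower in Dab2-cKO, at 868 ± 31.2 normalized counts per kb against 781 ± 49.7, and the genotypes overlapped. Without F13a1 and Epb42 it was 704 ± 46.6 in WT and 415 ± 22.4 in Dab2-cKO.

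**Figure D4:**
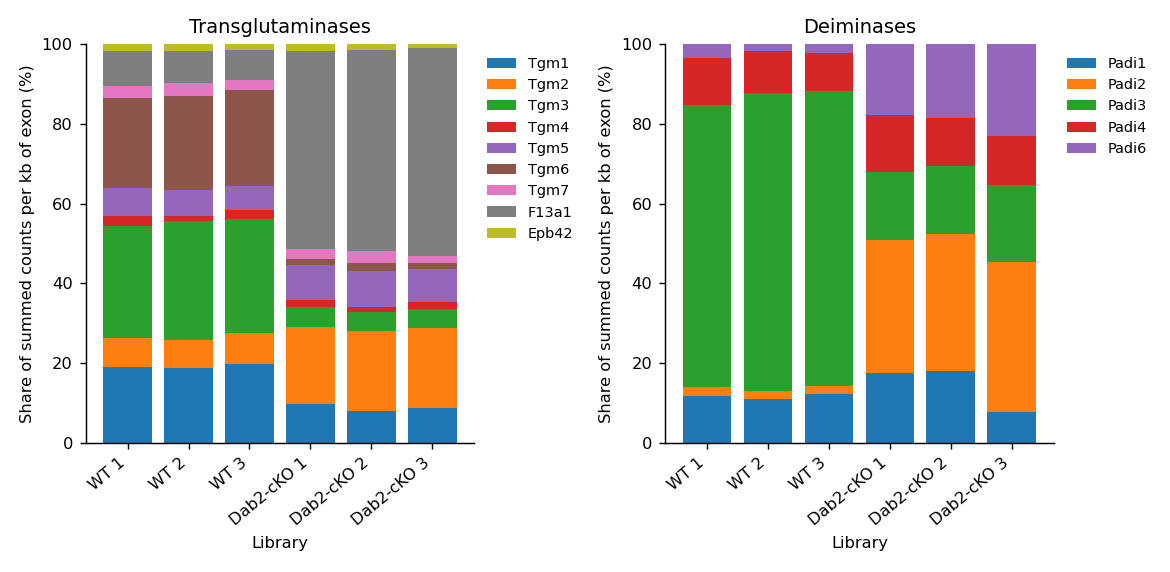
Share of each gene in the summed normalized counts per kb of exon (y axis, percent) of the transglutaminases (left) and the deiminases (right), with 1 bar per library. Padi3 fills 70.6% to 74.8% of the WT deiminase bars and 17.2% to 19.4% of the Dab2-cKO bars, and F13a1 fills 49.5% to 52.1% of the Dab2-cKO transglutaminase bars.

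Ratios of pairs of genes within a library need no scaling between libraries, and 9 such pairs were compared, with a prior count of 2 on each count. The log2 ratio of Tgm3 to Tgm1 was 0.85, 0.97 and 0.83 in WT and -0.71, -0.48 and -0.63 in Dab2-cKO, a difference of -1.49. Every Dab2-cKO library had a lower ratio of Tgm3 to Tgm1 than every WT library. The log2 ratio of Tgm5 to Tgm1 rose from between -1.79 and -1.53 to between -0.25 and 0.06, and that of Tgm2 to Tgm1 went from between -0.90 and -0.86 to between 1.50 and 1.80. Tgm5 thus rose relative to Tgm1 without any scaling of the libraries. Since Tgm1 itself fell, this ratio cannot show whether Tgm5 rose on its own.

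Among the deiminases, the log2 ratio of Padi3 to Padi1 was 2.47, 2.62 and 2.45 in WT and -0.13, -0.18 and 1.13 in Dab2-cKO. The third value belongs to the library with the lowest count of Padi1. The ratio of Padi2 to Padi1 differed by 3.83 and that of Padi4 to Padi2 by -3.79 on the log2 scale between the genotypes. The latter ratio, of counts not divided by length, was positive in all WT libraries and negative in all libraries labelled Dab2-cKO. For all 9 pairs the genotypes did not overlap, and the exact 2-sided permutation test gave p = 0.1 (0.1 after Benjamini-Hochberg adjustment over the 9 pairs), the smallest that 3 against 3 libraries allow.

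Tgm3 and Padi3 did not fall to the same extent, and both were compared with their shared substrate trichohyalin. The log2 ratio of Tgm3 to Padi3 was -0.96 ± 0.09 (SD, n = 3) in WT and 1.65 ± 0.27 in Dab2-cKO. Trichohyalin (Tchh) had 162261 ± 15992 normalized counts in WT and 1517 ± 13.5 in Dab2-cKO, a log2 fold change of -6.74 (SE 0.09, edgeR's adjusted p = 1.11e-62). Relative to Tchh in the same library, Padi3 was higher in Dab2-cKO by 1.68 and Tgm3 by 4.28 on the log2 scale (exact 2-sided permutation test, p = 0.1 for each). Padi3 was left near the background of the libraries (15.2 normalized counts per kb in Dab2-cKO), which limits the size of its measured fall, while Tchh was left at 261. Whether Padi3 fell less than Tchh is therefore not settled by these values, whereas Tgm3, at 40.7, fell less than either.

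The substrates of these enzymes showed separate patterns. All 11 hair follicle substrates tested, trichohyalin, Tchhl1, S100a3 and 8 type I and type II keratins of the inner root sheath, were called lower, with a median log2 fold change of -6.37 against -0.02 over all genes tested. Krt71 went from 32179 ± 2993 to 262 ± 29.1 and Krt25 from 20786 ± 1365 to 164 ± 9.69 normalized counts (SD, n = 3). S100a3, a calcium-binding protein of the hair cuticle and a substrate of Padi3, went from 1354 ± 108 to 21.1 ± 7.83 (log2 fold change -6.03). Krt74 was the exception in size, with a log2 fold change of -2.47.

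Of 15 substrates of the cornified envelope and of epidermal deimination, 6 were called higher, 6 lower and 3 were not called, with a median log2 fold change of 0.15. The genes that rose were the late envelope protein loricrin (Lor), filaggrin (Flg), its relatives Flg2 and Hrnr, and the suprabasal keratins Krt1 and Krt10. Krt10 went from 3985 ± 347 to 20673 ± 134 and Flg2 from 5900 ± 527 to 16139 ± 544 normalized counts (SD, n = 3), log2 fold changes of 2.37 and 1.45. The genes that fell were involucrin (Ivl), the small proline-rich genes Sprr1a and Sprr1b, envoplakin (Evpl), repetin (Rptn) and cornifelin (Cnfn). The fall of Cnfn (log2 fold change -0.35) was not called by DESeq2 (adjusted p = 0.0534), nor by edgeR without WT replicate 2 (adjusted p = 0.104) or Dab2-cKO replicate 3 (adjusted p = 0.0636). Sprr1a, a crosslinking bridge of the envelope, went from 2126 ± 153 to 154 ± 5.82 (log2 fold change -3.79), and Ivl, the early scaffold protein, from 2015 ± 136 to 1036 ± 49.9 (log2 fold change -0.96, the same as that of Tgm1 to 2 decimals). Periplakin (Ppl), a plakin like Evpl, was not called (6110 ± 630 and 6801 ± 227), but was called higher without WT replicate 2 (log2 fold change 0.23) and lower with libraries scaled by size only (-0.27).

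Partners of the enzymes moved less than the hair follicle substrates. Of 8 genes for proteases and a protease inhibitor known from the processing of Tgm3 or of filaggrin, 5 were called higher, 2 lower and 1 was not called, with a median log2 fold change of 0.30. Cathepsin L (Ctsl), which is known to activate Tgm3, fell from 1417 ± 108 to 1082 ± 17.9 normalized counts (SD, n = 3, log2 fold change -0.39). Legumain (Lgmn) rose by 1.28 on the log2 scale. Cystatin M/E (Cst6), an inhibitor of both proteases, had a log2 fold change of 0.37 and was called higher, but with libraries scaled by size only it had one of -0.049 (edgeR's adjusted p = 0.579). Asprv1, a protease of profilaggrin, rose by 0.78. Of 7 enzymes that make the lipid layer bound to the envelope, 5 rose and 2 (Cers3 and Pnpla1) fell, with a median of 0.83. Elovl4, which makes very long fatty acids, went from 2246 ± 143 to 10865 ± 167 normalized counts (log2 fold change 2.27).

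**Figure D5:**
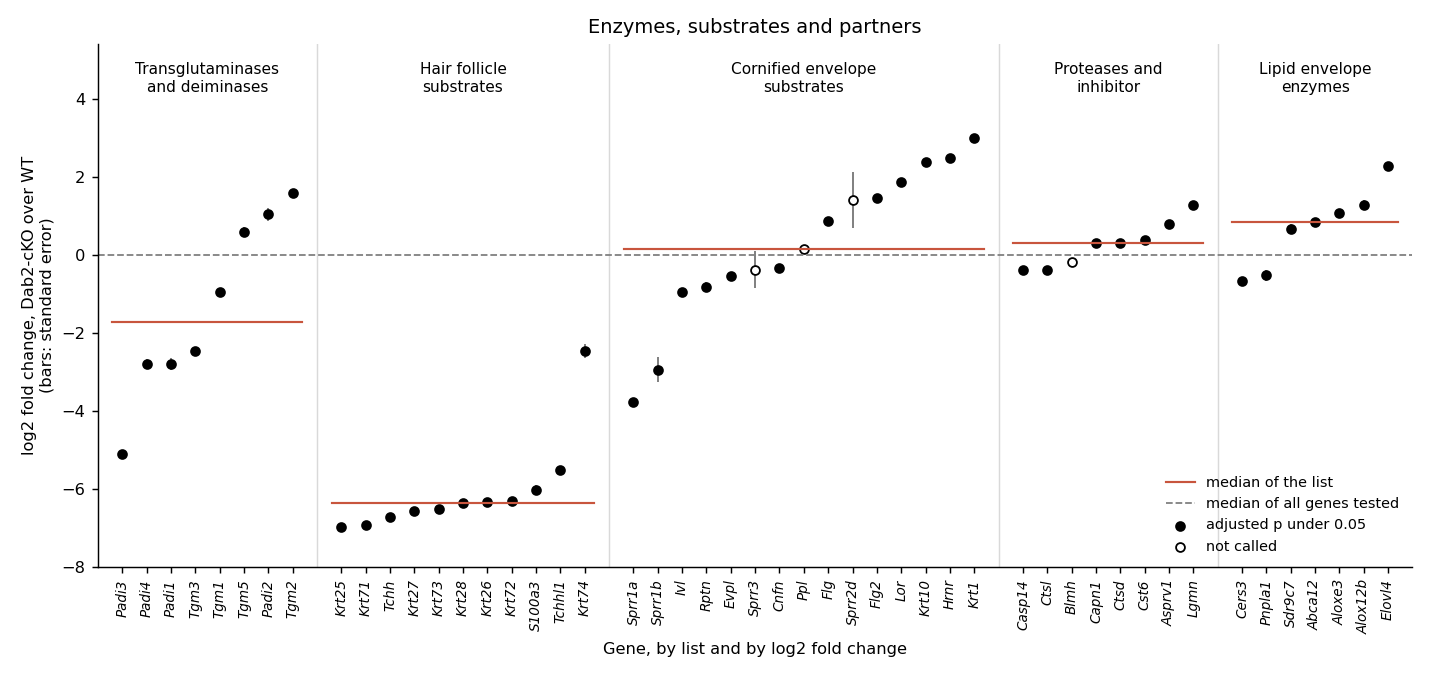
Log2 fold change, Dab2-cKO relative to WT (y axis, bars for the standard error) for each gene of 5 lists, ordered by value within a list, with filled points for genes called by edgeR, a red line at the median of each list and a dashed line at the median of all genes tested. The hair follicle substrates lie between -6.98 and -2.47 and, apart from Krt74, under the lowest enzyme (Padi3, -5.12), while the envelope substrates lie on both sides of the dashed line, from -3.79 to 2.99.

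Markers of the cells in which these enzymes are known moved as well. All 11 markers of the hair matrix and shaft tested were lower (Krt85 was not analysed here), with a summed normalized count of 24897 to 29184 in WT and 478 to 483 in Dab2-cKO and a median log2 fold change of -6.39. Both companion layer keratins, Krt75 and Krt6a, were lower too, and Fgf18, the third gene of that list, was not called. Of 7 markers of differentiated epidermis, 5 were higher and 2 lower (Lypd3 and Klk7), with sums of 15815 to 18234 and 53903 to 54564. All 4 proliferation markers were lower, with sums of 8794 to 9672 and 2371 to 2421. The part of these cells in the fall of Padi3, Tgm3 and Tgm1 and in the rise of Tgm5 was not tested.

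Tgm2 and F13a1 are also expressed outside the epithelium. All 6 fibroblast markers were higher in Dab2-cKO (summed normalized count 101493 to 122700 in WT and 354001 to 373663 in Dab2-cKO), as were all 6 endothelial markers (1349 to 1571 and 4851 to 4963) and all 6 macrophage and Langerhans cell markers (1697 to 1839 and 7706 to 7873). Of 4 smooth muscle markers, 3 were higher and Tagln was not called (1626 to 1791 and 4207 to 4263). The medians of these 4 lists were log2 fold changes of 1.59, 1.83, 1.97 and 0.77, beside 1.59 for Tgm2, 2.79 for F13a1 and 1.04 for Padi2. The epidermis had been separated from the dermis and live cells positive for CD34 and α6-integrin had been sorted, steps meant to remove most such cells. In WT, the fibroblast markers still ran from 518 ± 28.0 normalized counts (Lum) to 46083 ± 4750 (Col1a1). The basal keratin Krt14 was at 6377 ± 419 there (SD, n = 3). The part of cells outside the epithelium in the rise of Tgm2, F13a1 and Padi2 was not tested. None of the markers was at 0 in every library.

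Of the remaining lists, 3 of 4 sebaceous gland markers were higher and Mc5r was not called (878 to 1080 and 1954 to 2119), and all 5 melanocyte markers were lower (2595 to 2818 and 732 to 779). Of 10 bulge markers, 7 were higher (5 with libraries scaled by size only, Itga6 and Tcf7l1 being lost) and 3, Lgr5, Sox9 and Lhx2, were lower, with a median log2 fold change of 0.58 and sums of 19050 to 21808 and 32747 to 33711.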

How the data were processed

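Total RNA of FACS sorted HFSCs was sequenced from 3 WT and 3 Dab2-cKO biological replicates with a stranded low-input kit. Per the submitters' processing notes, the authors used FastQC 0.11.9, fastp 0.23.4, HISAT2 2.2.1 with GRCm39, SAMtools 1.6 and featureCounts 2.0.6, and the deposited count table holds raw counts per gene. How strand and multi-mapping reads were handled and which annotation release was used is not given in the sources used here. A table of the authors' own comparison (DESeq2 1.42.0 fold changes and p-values) was deposited too and was not used.

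Counts were filtered, normalized (TMM) and compared with edgeR 4.0.16 in R 4.3.3 (filterByExpr defaults, quasi-likelihood test, robust, no covariate) over all genes, and a gene was called at an adjusted p under 0.05. The procedure was tested on simulated data. A normalized count is the count over the library's effective size, times the mean effective size of the 6 libraries. Exon lengths and positions came from GENCODE on GRCm39, which held 98.9% of the gene IDs. RefSeq promoter windows (table build GRCm38.p6) were found for 7 of the 8 genes and were placed on GRCm39 by exact sequence match. Motifs were searched in the 250 bases before the start. A comparison of the protein sequences was planned and was not made.

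All 8 genes were named, with up to 4 of the most abundant genes of each list besides those a result turns on. The genes and lists were chosen with earlier results of these data known. Alternatives were DESeq2 1.42.0, upper-quartile scaling, library size only, TMM without mitochondrial and the 100 most abundant genes, a replicate block, no low-count filter, a minimum mean count of 50, each library left out, and a prior count of 0.5 for ratios. Averaged over 29369 to 33185 genes per pair of libraries scaled by total counts, replicates of a genotype differed by more than sampling noise (chi-square per degree of freedom 3.54 to 11.7). This was not computed for the 8 enzymes alone.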

Additional observations from a re-analysis of the deposited data

How the results depend on the processing

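The direction of all 8 enzymes held under all 13 alternatives, and the call did so in 103 of 104 comparisons. The exception was Tgm5 with libraries scaled by size only (log2 fold change 0.15, edgeR's adjusted p = 0.341), a scaling that moved the median of all genes to -0.45, while upper-quartile scaling moved it to -0.17. With size only, 2707 genes were called higher and 11082 lower, and with upper-quartile scaling 5561 were called lower. Size only also left 2 of the processing partners higher, where Cst6 (-0.049), Capn1 (-0.13) and Ctsd (-0.11) turned and lost their calls, 5 bulge markers higher, where Tcf7l1 turned too (-0.051), 1 sebaceous marker lower, and 0 neutrophil markers higher and 2 lower. Of the envelope substrates, 5 were called lower by DESeq2, without WT replicate 2 or Dab2-cKO replicate 3, or with genes averaging under 50 counts left out, and 7 higher without WT replicate 1 (Sprr2d added) or 2 (Ppl added). At a mean count of at least 50, 1 neutrophil marker was higher and 0 were lower, fewer genes being tested, and leaving out 1 library gave 1 to 2 higher, with 1 without WT replicate 2 or 3 or Dab2-cKO replicate 2 or 3. With the replicate number as a replicate block, Padi3 had a log2 fold change of -5.10 and Tgm5 of 0.57, 5348 genes were called higher and 3616 lower, and no call of the 8 enzymes changed. The labels do not pair the replicate numbers, and deviations of same-numbered libraries correlated at 0.01 to 0.02, although each correlated best with its own number, a hint from the data and not the design. All 63 comparisons of ratios and 84 of shares moved by less than the SD. Leaving out 1 of 3 libraries cannot move a mean by a whole SD. This outcome was therefore fixed in advance for all comparisons of shares, and for those of ratios other than the prior count of 0.5. With 3 libraries per genotype the permutation tests cannot go below p = 0.1, and Padi1, Padi3 and Padi4 rest on 24 to 67 counts per library labelled Dab2-cKO. Padi2 rests on 68, 84 and 81 counts in WT.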

Other observations

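The genes whose pattern was most like that of the leading enzyme of each family were looked up over the 6 libraries, among 10845 genes averaging 100 or more normalized counts, by Pearson's r of log2 CPM. For Tgm3 they were Lrrc15 (r = 0.9997), the proliferation marker Mki67 (r = 0.9997) and the epithelial transcription factor Grhl1 (r = 0.9996), and for Padi3 they were Bambi, a BMP and TGF-β pseudoreceptor (r = 0.9998), the zinc transporter Slc39a8 (r = 0.9997) and the ligand Wnt5a (r = 0.9996). Their sizes of change were not alike: the log2 fold change was -4.33 for Lrrc15, -2.12 for Mki67 and -1.08 for Grhl1, beside -2.47 for Tgm3, and -3.21 for Bambi, -2.65 for Slc39a8 and -1.74 for Wnt5a, beside -5.12 for Padi3. As many as 412 and 406 genes had an r over 0.99 with Tgm3 and Padi3, the points being 3 libraries of each genotype, so the named genes stand for many.

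Near Tgm5, Tmem62 fell (log2 fold change -1.15) and Ccndbp1 had a log2 fold change of 0.54 and was called higher, a call lost with libraries scaled by size only (0.12), while Ubr1, Lcmt2 and Adal were not called.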
